A study of Mus musculus with 103 samples.

Results

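Caudal neural epithelium of the mouse embryo at embryonic day 8.5 (E8.5) was compared with neural epithelium of the same stage captured outside the floor plate, the ventral midline strip of the neural plate. The samples were taken by their titles, 4 of caudal and 5 of non-floor plate neural epithelium, which makes 9 of the 103 samples of an expression atlas of the early face. Every embryo was of the outbred CD1 strain, untreated and with no engineered allele named in the labels, and all regions were cut by laser from frozen sections. Each sample was amplified and hybridised to 1 Affymetrix array. The 4 libraries of E8.5 floor plate neural epithelium are given beside the others for reference. The labels do not say which animals a library came from or how far along the body axis the caudal piece lay, so the libraries may not come from separate animals, and p-values measure spread between libraries only. In pieces of tissue, fewer cells of a type and less RNA per cell cannot be told apart.

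At this stage the neural plate is closing into a tube and is divided along its length by transcription factors. Forebrain and eye field factors such as SIX3, RAX and HESX1 mark its front, OTX2 marks forebrain and midbrain, and GBX2 marks the hindbrain side of the border with OTX2. At that border lies the midbrain-hindbrain organizer, a signalling centre that makes WNT1 and FGF8 and is kept by engrailed and PAX factors. Farther back, retinoic acid, FGF and WNT signals induce CDX and HOX genes, which pattern hindbrain and spinal cord.

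All values below are log2 of the deposited ratio of a probe set to a baseline, so that 0 is the baseline, 1 is 2-fold above it, and values of different genes give no order of abundance. Means are given ± SD and differences, caudal minus the other group, ± SE. A gene is said to have risen or fallen where limma's Benjamini-Hochberg adjusted p over 19938 genes was under 0.05. SE and p rest on the spread between libraries within groups, pooled over 22 groups of the atlas and not over the compared libraries alone. Median log2 ratios of the libraries were 0.029 to 0.053 in caudal and 0.00 to 0.046 in non-floor plate neural epithelium, and the SD over genes was 0.642 to 0.726 in caudal and 0.539 to 0.665 in non-floor plate. Over all genes, caudal libraries correlated with each other at 0.64 to 0.72 (Pearson's r across genes, which are not independent) and with non-floor plate libraries at 0.38 to 0.56, while non-floor plate libraries correlated with each other at 0.39 to 0.54. Sox2, a factor of neural progenitors, lay at 1.33 to 1.55 in caudal and 1.38 to 2.30 in non-floor plate libraries, and Cdh2, the cadherin of the neural plate, at 0.76 to 1.65 in caudal and 0.12 to 1.71 in non-floor plate libraries. Both neural markers were thus above the baseline in every library of both groups, while Sox1 and Sox3 lay within 0.5 of the baseline in every library of both groups.

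In caudal neural epithelium 234 genes were higher and 48 lower than in non-floor plate, 282 in all. This is 1.41% of the genes tested, 1.17% higher and 0.241% lower. The difference was 2-fold or more in 185 of them, and in 149 no caudal library overlapped a non-floor plate library. Of all genes tested, called or not, 5.71% showed no overlap (3.41% higher, 2.3% lower). An unadjusted p under 0.05 was found for 1475 genes, 7.4% of those tested. These shares of all genes are the background for the counts within gene lists below. The median difference of all genes was 0.017. The greatest rises with no overlap were those of Fabp7, Cldn10, Fam181b, Hes3 and Pax8, and the greatest falls those of Fezf1, Hesx1, Pax6, Rax and Aldh1a2. After quantile normalization 94 genes were higher and 65 lower, so that the share of higher calls was 59.1% in place of 83.0%, and with the compared groups fitted alone 76 genes passed.

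**Figure D1:**
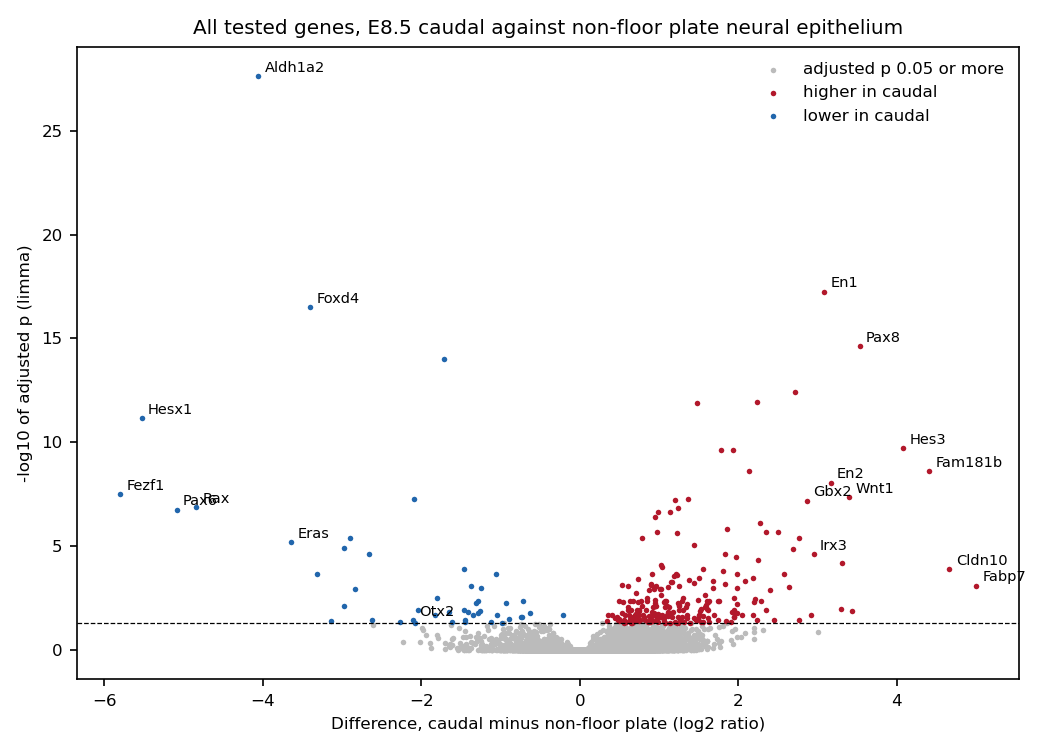
Each point is a gene, with its log2 difference between caudal and non-floor plate neural epithelium on the x axis and -log10 of limma's adjusted p on the y axis. The dashed line is an adjusted p of 0.05. The 234 red points are higher in caudal libraries and the 48 blue points lower, with Aldh1a2 at the smallest adjusted p and Fezf1 at the largest fall.

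Regulators of forebrain and midbrain were lower in caudal libraries: 8 of 14 measured genes fell, none rose and 6 did not pass. Their median difference was -2.47, against 0.017 over all genes. Fezf1 (probe set 10543362, chromosome 6), a zinc finger repressor of the forebrain, had -0.26, -0.37, -0.36 and -0.31 in the caudal libraries, against 5.62, 5.28, 5.67, 5.00 and 5.79 in the non-floor plate libraries. The caudal libraries all lay just under the baseline and the others far above it, a 55.6-fold difference (-5.80 ± 0.75, adjusted p = 3.1e-08).

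Hesx1, a homeobox repressor of anterior forebrain and pituitary, had -0.22, 0.18, 0.92 and -0.21 in the caudal libraries, against 5.78, 5.34, 6.17, 5.62 and 5.56 in the non-floor plate libraries (-5.53 ± 0.57, adjusted p = 6.7e-12). Pax6, a paired box factor of eye and forebrain, had -0.33, -0.63, -0.32 and -0.40 in the caudal libraries, against 4.72, 4.62, 4.61, 4.59 and 4.79 in the non-floor plate libraries (-5.09 ± 0.70, adjusted p = 1.7e-07). Rax, which specifies the eye field, had -0.16, -0.31, -0.32 and -0.07 in the caudal libraries, against 5.51, 5.10, 4.09, 4.52 and 3.91 in the non-floor plate libraries (-4.84 ± 0.66, adjusted p = 1.3e-07). For all 3 the groups were far apart, and the caudal values spread little around the baseline, most in Hesx1.

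Lhx2, a LIM homeobox gene of eye field and forebrain, averaged -0.54 ± 0.43 (SD, n = 4) in caudal and 2.77 ± 0.25 (SD, n = 5) in non-floor plate libraries (-3.31 ± 0.61, adjusted p = 0.00022). Lhx5, another LIM homeobox gene of the forebrain, averaged 0.40 ± 0.75 (SD, n = 4) in caudal and 3.24 ± 0.69 (SD, n = 5) in non-floor plate libraries (-2.84 ± 0.58, adjusted p = 0.0011). Six3, a repressor of WNT genes at the front of the plate, had -0.68, -0.67, -0.92 and -0.61 in the caudal libraries, against 2.50, 2.90, 2.98, 1.02 and 1.48 in the non-floor plate libraries (-2.90 ± 0.45, adjusted p = 4e-06). Six3 did not overlap, but the last 2 non-floor plate libraries were lower than the others, and without non-floor plate libraries 1 to 3 it missed the threshold (-1.97, adjusted p = 0.064). Fitted in the compared groups alone, Lhx5 was at adjusted p = 0.051.

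Otx2, the head homeobox gene whose domain ends at the midbrain-hindbrain border, fell with overlap between the groups. It had 0.20, 2.82, 4.10 and 0.22 in caudal libraries 1 to 4, against 3.66, 3.75, 3.86, 4.44 and 4.00 in the non-floor plate libraries. Caudal libraries 1 and 4 were near the baseline, library 3 lay inside the non-floor plate range and library 2 below it. The difference of -2.10 ± 0.57 passed (adjusted p = 0.035), but not without caudal library 1 or without caudal library 4 (-1.56 and adjusted p = 0.32 in each case), nor without non-floor plate library 2, 3, 4 or 5 (-2.15 to -1.98, adjusted p = 0.056 to 0.096), after quantile normalization (adjusted p = 0.16) or in the compared groups alone (adjusted p = 0.33). Its relative Otx1 did not pass (0.61 ± 0.33, adjusted p = 0.77), and had -0.31, 1.40, 3.01 and 0.38 in caudal libraries 1 to 4, so that libraries 2 and 3 were again the high ones. Fezf2, Six6 and Emx2, which act in forebrain and eye, had lower means in caudal libraries but did not pass (adjusted p = 0.24, 0.18 and 0.78). Six6 spread from -0.09 to 3.96 within the non-floor plate libraries.

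**Figure D2:**
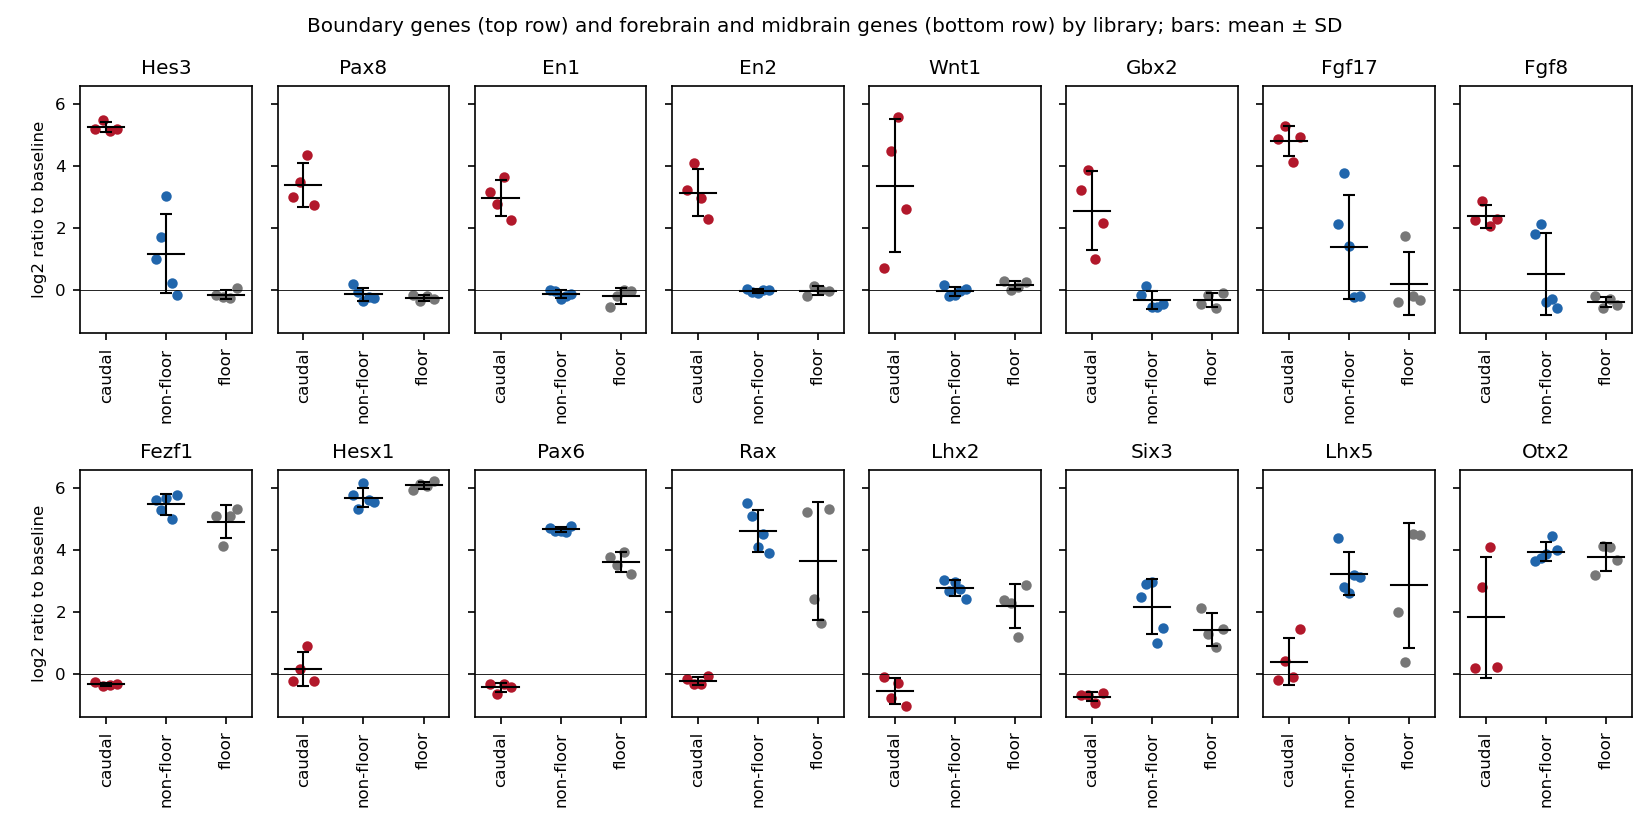
Log2 ratio to the baseline by library for Hes3 and 7 midbrain-hindbrain boundary genes (top) and 8 forebrain and midbrain genes (bottom), with caudal (red, n = 4), non-floor plate (blue, n = 5) and floor plate (grey, n = 4) neural epithelium; lines are means and bars SD. Fezf1, Pax6 and Rax are near 0 in every caudal library, while Otx2 in caudal libraries runs from 0.20 to 4.10 and Wnt1 from 0.72 to 5.59.

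Genes of the midbrain-hindbrain boundary showed the opposite direction. Of 12 measured, 8 rose, none fell and 4 did not pass, with a median difference of 2.75. Pax8 (probe set 10480477, chromosome 2), a paired box factor of the early boundary region and otic placode, had 3.00, 3.48, 4.35 and 2.75 in the caudal libraries, against 0.21, -0.06, -0.35, -0.23 and -0.26 in the non-floor plate libraries. The lowest caudal library stood well above every non-floor plate library, and the difference was 3.53 ± 0.30 (11.6-fold, adjusted p = 2.4e-15). En1, an engrailed homeobox gene of the boundary, had 3.17, 2.78, 3.64 and 2.26 in the caudal libraries, against 0.01, -0.02, -0.27, -0.20 and -0.13 in the non-floor plate libraries (3.08 ± 0.23, adjusted p = 5.5e-18). En2, its paralogue, had 3.24, 4.10, 2.97 and 2.28 in the caudal libraries, against 0.04, -0.07, -0.09, 0.02 and 0.00 in the non-floor plate libraries (3.16 ± 0.39, adjusted p = 8.5e-09). Pax8, En1 and En2 were therefore high in all 4 caudal libraries and at the baseline in all 5 others.

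Wnt1, the WNT ligand of midbrain and organizer, had 0.72, 4.50, 5.59 and 2.63 in caudal libraries 1 to 4, against 0.17, -0.20, -0.14, -0.04 and 0.04 in the non-floor plate libraries (3.40 ± 0.44, adjusted p = 4.4e-08). Gbx2, the homeobox gene of the hindbrain side, had 3.23, 3.88, 0.99 and 2.15 in caudal libraries 1 to 4, against -0.15, 0.13, -0.54, -0.54 and -0.43 in the non-floor plate libraries (2.87 ± 0.38, adjusted p = 6.2e-08). Neither gene overlapped, but the caudal libraries differed widely: library 3 was the highest for Wnt1 and the lowest for Gbx2, and library 1 the lowest for Wnt1. With the spread taken from the compared groups alone, Wnt1 was at adjusted p = 0.19 and Gbx2 at adjusted p = 0.088.

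The organizer's FGF ligands also rose. Fgf17 had 4.88, 5.30, 4.14 and 4.95 in the caudal libraries, against 2.13, 3.77, 1.44, -0.23 and -0.18 in the non-floor plate libraries (3.43 ± 0.84, adjusted p = 0.013). Fgf8 had 2.25, 2.89, 2.06 and 2.31 in the caudal libraries, against 1.80, 2.12, -0.39, -0.30 and -0.59 in the non-floor plate libraries (1.85 ± 0.51, adjusted p = 0.04). Caudal values of these 2 genes were close together, and non-floor plate values were split, with libraries 1 and 2 high for Fgf8, where library 2 overlapped the caudal range. Fgf18, which acts with them, averaged 2.53 ± 0.85 (SD, n = 4) in caudal and -0.11 ± 0.13 (SD, n = 5) in non-floor plate libraries (2.63 ± 0.53, adjusted p = 0.00088). The call of Fgf17 ended without caudal library 2 (3.27, adjusted p = 0.051), without non-floor plate library 4 (3.02, adjusted p = 0.066) and without non-floor plate library 5 (3.04, adjusted p = 0.064), and that of Fgf8 ended without any of the 4 caudal libraries and without non-floor plate library 3, 4 or 5 (1.57 to 1.95, adjusted p = 0.064 to 0.18). In the compared groups alone Fgf17 was at adjusted p = 0.16 and Fgf8 at adjusted p = 0.29, and Fgf8 was at adjusted p = 0.44 after quantile normalization. With the 4 groups of E8.5 fitted alone Fgf8 was at adjusted p = 0.13 and Fgf18 at adjusted p = 0.082.

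Not every boundary gene was higher. Pax2 and Pax5, the other paired box genes of the boundary, averaged -0.04 ± 0.21 and 0.28 ± 0.53 (SD, n = 4) in caudal and -0.05 ± 0.09 and -0.05 ± 0.11 (SD, n = 5) in non-floor plate libraries, and neither passed (adjusted p = 1 and 0.79). Only caudal library 2 held Pax5 above 0.5, at 1.06. Lmx1b, a LIM homeobox gene needed for Wnt1 at the organizer, differed by -0.08 ± 0.25 and Cnpy1, a modulator of FGF signals, by 0.45 ± 0.32, and neither passed (adjusted p = 1 for each). Across the Pax family 1 gene rose, Pax8, 1 fell, Pax6, and 7 did not pass. Pax3, a gene of the dorsal neural tube and crest, had 0.68, 0.20, 0.27 and 1.88 in the caudal libraries, against 3.27, 2.09, 0.10, 0.01 and -0.07 in the non-floor plate libraries. Its high values were in non-floor plate libraries 1 and 2, and its difference of -0.32 ± 0.37 turned to 0.23 without non-floor plate library 1, with no call either way. Pax1, Pax4, Pax7 and Pax9 had differences of -0.10 to 0.02.

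Promoter sequences from RefSeq (GRCm38.p6) are shown for 4 regulators without overlap between the groups, so that both directions can be read beside each other: Pax8 and En1, which rose, and Fezf1 and Hesx1, which fell. Each runs 5′ to 3′ on the gene's strand, 250 bases before the annotated start in lower case and the 50 bases from the start in capitals.
Pax8, chr2:24475550-24475849, minus strand: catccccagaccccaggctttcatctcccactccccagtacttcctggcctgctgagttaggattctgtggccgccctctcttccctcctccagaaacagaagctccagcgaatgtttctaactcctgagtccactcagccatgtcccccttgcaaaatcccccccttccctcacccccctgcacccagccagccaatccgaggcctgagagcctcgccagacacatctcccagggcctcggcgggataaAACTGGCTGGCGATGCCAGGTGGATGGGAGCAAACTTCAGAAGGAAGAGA
En1, chr1:120602237-120602536, plus strand: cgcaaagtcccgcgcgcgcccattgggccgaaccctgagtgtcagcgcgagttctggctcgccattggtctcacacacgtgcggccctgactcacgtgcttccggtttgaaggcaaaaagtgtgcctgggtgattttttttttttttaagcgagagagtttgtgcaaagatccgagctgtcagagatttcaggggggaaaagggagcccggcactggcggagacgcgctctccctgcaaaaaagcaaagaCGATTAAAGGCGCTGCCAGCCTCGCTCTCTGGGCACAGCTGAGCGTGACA
Fezf1, chr6:23248215-23248514, minus strand: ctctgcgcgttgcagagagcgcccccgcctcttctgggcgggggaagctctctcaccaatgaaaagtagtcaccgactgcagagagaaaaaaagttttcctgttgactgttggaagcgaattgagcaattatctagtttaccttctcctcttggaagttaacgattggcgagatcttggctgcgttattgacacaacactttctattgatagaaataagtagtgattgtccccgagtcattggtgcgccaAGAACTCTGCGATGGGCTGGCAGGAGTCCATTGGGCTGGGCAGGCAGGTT
Hesx1, chr14:27000112-27000411, plus strand: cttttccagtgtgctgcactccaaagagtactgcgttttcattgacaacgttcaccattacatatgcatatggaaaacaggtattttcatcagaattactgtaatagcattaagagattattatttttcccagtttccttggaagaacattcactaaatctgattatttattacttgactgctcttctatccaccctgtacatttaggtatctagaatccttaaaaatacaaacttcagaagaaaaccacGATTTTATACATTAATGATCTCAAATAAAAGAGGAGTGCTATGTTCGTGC
GC content was 59.3% for Pax8, 57.0% for En1, 50% for Fezf1 and 33.7% for Hesx1, with a median of 52.7% over 32851 RefSeq promoters of this length, and the number of CG pairs was 7, 23, 13 and 4 with a median of 7. Searched on both strands, the homeodomain core TAATTA and the LEF/TCF core CTTTGA were in none of the 4 windows, and the E-box CACGTG was in that of En1. These letters occur in 5.3% (TAATTA), 16% (CTTTGA) and 7.2% (CACGTG) of all such promoters, and their presence or absence here is a description of the letters alone.

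Hes3 (probe set 10518902, chromosome 4), a Hes repressor that keeps neural progenitors undifferentiated and is strong at the boundary, was the member of the Notch and Hes list that rose, 1 of 19, with 18 not passing (2 had an unadjusted p under 0.05 in limma's test, against 7.4% of all genes). It had 5.21, 5.49, 5.12 and 5.19 in the caudal libraries, against 1.02, 1.70, 3.05, 0.24 and -0.14 in the non-floor plate libraries (4.08 ± 0.46, adjusted p = 1.8e-10). The caudal libraries were nearly equal, and the non-floor plate libraries covered more than 3 log2 units below them. Hes5, a Notch target, had 1.95, 1.92, 1.36 and 1.10 in the caudal libraries, against 0.38, 0.90, -0.58, -0.01 and 1.00 in the non-floor plate libraries, with no overlap but no call (1.25 ± 0.42, adjusted p = 0.17).

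The caudal libraries were not alike, and the genes that varied most are given by library as a description, with no test. Otx2, Otx1 and Wnt1 were highest in library 3, next in library 2 and lower in libraries 1 and 4. Trh, the thyrotropin releasing hormone precursor, had -0.15, 5.89, 5.59 and 0.62 in caudal libraries 1 to 4, against 3.5, 2.48, 0.59, 0.23 and 2.58 in the non-floor plate libraries. Vgll3, a cofactor of TEAD factors, had 3.88, -0.22, -0.14 and 3.74 in caudal libraries 1 to 4, against -0.27 to -0.06 in the non-floor plate libraries, and passed (1.97 ± 0.33, adjusted p = 3.4e-05) with 2 caudal libraries at the non-floor plate level; in the compared groups alone it was at adjusted p = 0.43. Msx3, a homeobox gene of the dorsal neural tube behind the forebrain, had 4.14, 1.64, 1.69 and 3.30 in caudal libraries 1 to 4, against -0.14 to 0.05 in the non-floor plate libraries (2.72 ± 0.26, adjusted p = 3.6e-13; 0.086 in the compared groups alone). Trh, Vgll3 and Msx3 were chosen after their values were seen. Libraries 2 and 3 were thus the high ones for Otx2, Wnt1 and Trh, and libraries 1 and 4 for Vgll3, Msx3 and Fabp7. Eif2s3y, a Y-linked gene looked at for the sex of the pieces, had -0.64, 2.44, -0.62 and 3.28 in caudal libraries 1 to 4, against -0.74, 4.21, -0.61, 4.49 and 4.40 in the non-floor plate libraries, so that libraries with and without its signal were in both groups and did not follow Otx2. In floor plate libraries 1 to 4 it had -0.63, 4.41, -0.70 and 3.90. Libraries 1 and 3 were thus below the baseline and libraries 2 and 4 above it in each of these groups. E8.5 mesenchyme ran the other way, with 3.83, -0.69, 3.94, -0.64 and -0.63 in its libraries 1 to 5. Whether libraries of the same number came from the same embryo was not tested.

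**Figure D3:**
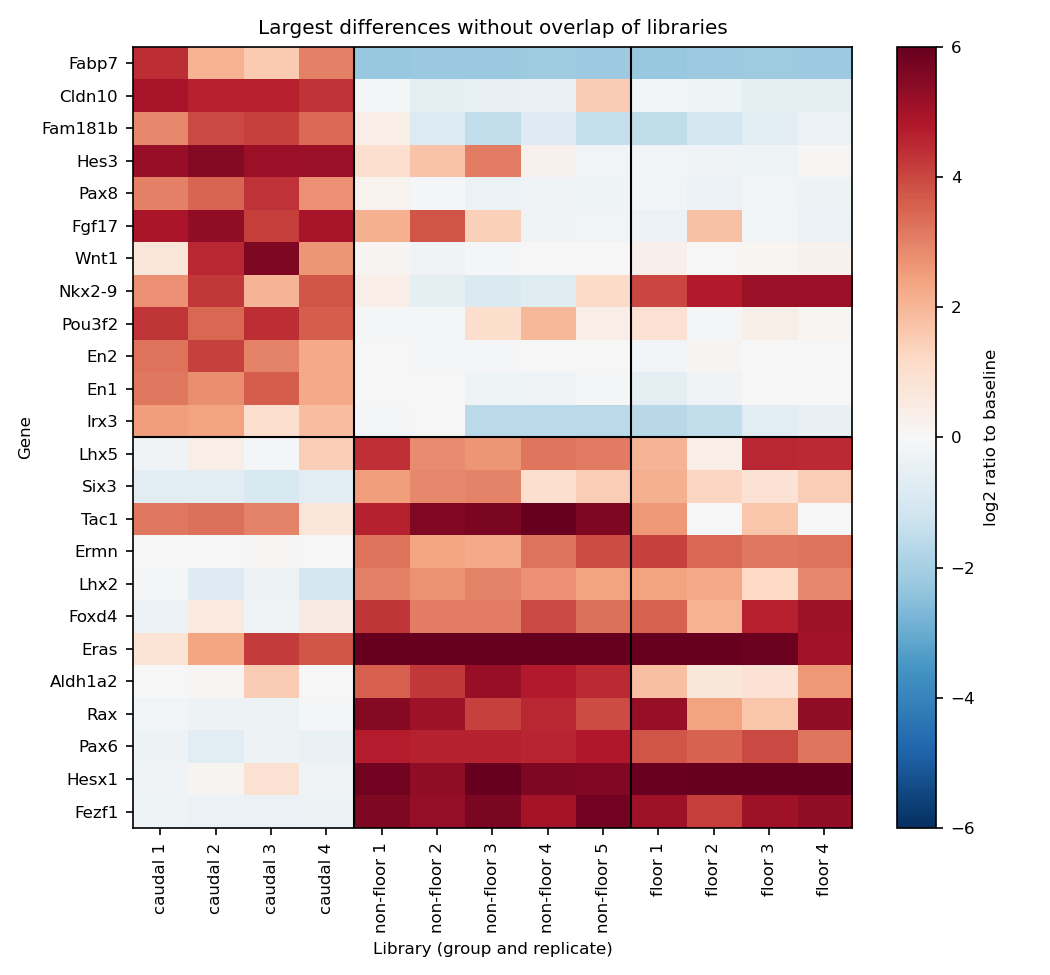
Log2 ratio by library (columns) for the 12 genes with the largest rise and the 12 with the largest fall among called genes without overlap between caudal and non-floor plate (rows, colour scale from -6 to 6). The vertical lines part caudal, non-floor plate and floor plate libraries. Floor plate libraries share the low Fabp7 and high Fezf1 of non-floor plate, and are high for Nkx2-9.

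Hindbrain genes gave 3 rises, no fall and 7 genes that did not pass among 10 measured, with a median difference of -0.04. Those that rose were Irx3, Crabp1 and Fgf3. Fgf3, an FGF of the hindbrain that helps induce the ear, had 2.96, 1.48, 1.41 and 2.17 in the caudal libraries, against -0.11, -0.27, 0.38, 1.95 and -0.32 in the non-floor plate libraries, where library 4 overlapped (1.68 ± 0.34, adjusted p = 0.001). Crabp1, a retinoic acid binding protein strong in hindbrain and crest, had 0.33, 0.21, 0.36 and 0.57 in the caudal libraries, against -1.25, -1.57, -2.37, -1.85 and -0.74 in the non-floor plate libraries (1.92 ± 0.48, adjusted p = 0.014). The calls of both ended without non-floor plate libraries 1 to 3 (1.19 and adjusted p = 0.28 for Fgf3, 1.66 and adjusted p = 0.29 for Crabp1), that of Crabp1 also without non-floor plate library 3 alone (1.72, adjusted p = 0.062), and that of Fgf3 after quantile normalization (adjusted p = 0.068) and in the compared groups alone (adjusted p = 0.26). Egr2, which marks rhombomeres 3 and 5, lay at -0.27 to 0.00 in caudal and -0.12 to 0.08 in non-floor plate libraries.

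None of 37 measured Hox genes passed in limma's test, and none had an unadjusted p under 0.05, against 1.41% and 7.4% of all genes. Their differences lay between -0.20 and 0.06, and the mean over the list was -0.08 to -0.07 in caudal and -0.09 to 0.02 in non-floor plate libraries. Hoxb1, the gene of rhombomere 4, had -0.20, -0.19, -0.19 and -0.17 in the caudal libraries, against 0.05, 0.08, -0.14, 0.01 and 0.05 in the non-floor plate libraries, all within 0.2 of the baseline. Hoxb7, a trunk gene, had -0.37, -0.39, -0.45 and -0.16 in the caudal libraries, against -0.01, -0.06, -0.49, -0.21 and -0.11 in the non-floor plate libraries. Ratios to a baseline do not tell whether such a probe set carries signal at all. Of 11 genes of caudal progenitors, the cells that lengthen the trunk, 1 rose, 1 fell and 9 did not pass. Limma's unadjusted p was under 0.05 for 2 of the 11, against 7.4% of all genes. Sp5, a WNT target, rose (2.21 ± 0.48, adjusted p = 0.0034) with 1.08, 2.57, 2.68 and 1.84 in the caudal libraries, against 1.13, -0.44, -0.72, -0.42 and -0.38 in the non-floor plate libraries, where library 1 overlapped. Wnt5b fell (-0.93 ± 0.21, adjusted p = 0.0051), but not without non-floor plate library 5 (-0.73, adjusted p = 0.068). In the compared groups alone the calls of Sp5 (adjusted p = 0.12) and Wnt5b (adjusted p = 0.23) ended.

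The Iroquois genes, homeobox genes expressed behind the forebrain, rose together: 5 of the 10 measured Irx and Zic genes were higher, all of them Irx, and 5 did not pass. Irx3 had 2.53, 2.43, 1.00 and 1.87 in the caudal libraries, against -0.14, 0.03, -1.61, -1.63 and -1.62 in the non-floor plate libraries (2.95 ± 0.49, adjusted p = 2.4e-05). Irx5 had 2.53, 2.22, 1.5 and 2.66 in the caudal libraries, against -0.59, -0.43, -0.57, -0.38 and -0.73 in the non-floor plate libraries (2.77 ± 0.43, adjusted p = 4e-06). Irx2 averaged 0.92 ± 0.64 (SD, n = 4) in caudal and -0.33 ± 0.15 (SD, n = 5) in non-floor plate libraries (1.25 ± 0.25, adjusted p = 0.00076). Caudal library 3 was the lowest for Irx3, Irx5, Irx2 and Irx4. Irx1 rose by 0.83 ± 0.23 (adjusted p = 0.036) and Irx4 by 0.78 ± 0.18 (adjusted p = 0.0071), which are the weakest of the 5. Irx4 overlapped, with 1.76, 0.40, -0.19 and 1.11 in the caudal libraries, against 0.04, -0.09, -0.18, 0.23 and -0.06 in the non-floor plate libraries. Caudal library 3 thus showed no rise of Irx4. The call of Irx1 ended without caudal library 1, 2 or 3 or non-floor plate library 2, 3, 4 or 5 (0.66 to 0.87, adjusted p = 0.062 to 0.28), that of Irx4 without caudal library 1 or 4 (0.45 and 0.67, adjusted p = 0.32 and 0.066), those of Irx1, Irx2 and Irx4 after quantile normalization (adjusted p = 0.56, 0.17 and 0.78), and those of all but Irx5 in the compared groups alone (adjusted p = 0.067 to 0.41).

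Of 11 FGF ligands 5 rose (Fgf17, Fgf18, Fgf15, Fgf8 and Fgf3), 1 fell (Fgf5) and 5 did not pass, with a median difference of 0.18. Fgf15, a ligand of the neural tube, had 3.41, 3.29, 2.72 and 3.42 in the caudal libraries, against 0.04, -0.06, 2.25, 1.45 and 2.40 in the non-floor plate libraries (1.99 ± 0.46, adjusted p = 0.0061). Fgf5, a ligand of the epiblast, had -0.23, -0.17, -0.15 and -0.33 in the caudal libraries, against 1.02, 2.14, 2.27, -0.25 and -0.01 in the non-floor plate libraries (-1.25 ± 0.25, adjusted p = 0.001). The non-floor plate libraries fell into high and low values for both, libraries 1 and 2 being low for Fgf15 and libraries 4 and 5 for Fgf5, where library 4 lay inside the caudal range. Without non-floor plate libraries 1 to 3 the difference was -0.09 for Fgf5 (adjusted p = 1) and 1.28 for Fgf15 (adjusted p = 0.52), and without non-floor plate library 2 Fgf15 was at 1.67 (adjusted p = 0.057). In the compared groups alone Fgf15 was at adjusted p = 0.22 and Fgf5 at adjusted p = 0.4.

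Of 15 FGF receptors and feedback genes 3 rose and 12 did not pass, against 1.17% of all genes higher. Limma's unadjusted p was under 0.05 for 6 of the 15, against 7.4% of all genes. Spred1, an inhibitor of the RAS pathway that FGF induces, had 2.14, 3.07, 1.31 and 2.85 in the caudal libraries, against 0.55, 1.16, 1.11, -0.08 and -0.21 in the non-floor plate libraries (1.84 ± 0.36, adjusted p = 0.00062). Spry2, a feedback inhibitor of FGF receptors, had 0.74, 0.92, 1.32 and 1.24 in the caudal libraries, against 0.07, -0.10, -0.02, 0.20 and 0.07 in the non-floor plate libraries (1.01 ± 0.21, adjusted p = 0.0011). Etv5, an ETS factor downstream of FGF, had 1.66, 2.38, 2.27 and 2.15 in the caudal libraries, against 0.28, 0.87, 2.36, -0.42 and -0.33 in the non-floor plate libraries, where library 3 lay inside the caudal range (1.56 ± 0.40, adjusted p = 0.022). Spred1 and Spry2 did not overlap, although Spry2 missed the threshold after quantile normalization (0.51, adjusted p = 0.63) and without non-floor plate libraries 1 to 3 (0.92, adjusted p = 0.081), and Spred1 in the compared groups alone (adjusted p = 0.16). Etv5 missed it without caudal library 2, 3 or 4 or non-floor plate library 1, 4 or 5 (1.32 to 1.55, adjusted p = 0.053 to 0.13), after quantile normalization (adjusted p = 0.091) and in the compared groups alone (adjusted p = 0.3). Dusp6, a phosphatase induced by FGF, did not overlap and did not pass (1.44 ± 0.50, adjusted p = 0.19), nor did the receptor Fgfr1 (1.15 ± 0.40, adjusted p = 0.19).

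Among 19 WNT ligands 1 rose, Wnt1, 1 fell, Wnt5b, and 17 did not pass, and among 21 WNT modulators and targets 3 rose, 2 fell and 16 did not pass. Limma's unadjusted p was under 0.05 for 3 of the ligands and 8 of the modulators and targets, against 7.4% of all genes. The modulators and targets that rose were Sp5, given above, Notum and Nkd1. Notum, a secreted enzyme that inactivates WNT proteins and is itself a WNT target, had 1.16, 2.08, 1.98 and 2.12 in the caudal libraries, against -0.37, -0.44, -0.27, -0.27 and -0.16 in the non-floor plate libraries (2.14 ± 0.26, adjusted p = 2.4e-09). Nkd1, an intracellular antagonist, had 2.92, 2.76, 3.23 and 3.23 in the caudal libraries, against 2.34, 0.88, -0.99, 0.11 and 3.11 in the non-floor plate libraries (1.94 ± 0.51, adjusted p = 0.026). Dkk1, a secreted antagonist of head development, had -0.70, -0.68, 1.05 and 0.64 in the caudal libraries, against 3.21, 2.29, -0.05, 3.92 and 4.11 in the non-floor plate libraries (-2.62 ± 0.71, adjusted p = 0.035). Notum was clear of overlap, while for Nkd1 and Dkk1 single non-floor plate libraries lay inside the caudal range, library 5 for the first and library 3 for the second.

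The receptor Fzd5 fell by 0.72 on the log2 scale (adjusted p = 0.026), and Fzd8, another frizzled receptor of the forebrain, did not overlap but did not pass (-1.17 ± 0.34, adjusted p = 0.067). The call of Nkd1 ended without caudal library 1, 3 or 4 or non-floor plate library 2, 3 or 4 (1.42 to 1.98, adjusted p = 0.052 to 0.22), that of Dkk1 without caudal library 1 or 2 or non-floor plate library 1, 2, 4 or 5 (-2.72 to -2.27, adjusted p = 0.05 to 0.16), and that of Fzd5 without any of the caudal libraries or non-floor plate library 3 or 4 (-0.74 to -0.61, adjusted p = 0.052 to 0.14). In the compared groups alone Nkd1, Dkk1 and Fzd5 were at adjusted p = 0.36, 0.28 and 0.21.

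Among 15 retinoic acid genes 1 rose, Crabp1, 1 fell, Aldh1a2, and 13 did not pass. Limma's unadjusted p was under 0.05 for 4 of the 15, against 7.4% of all genes. Aldh1a2, the main retinoic acid synthesising enzyme of the early embryo, had 0.04, 0.05, 1.54 and 0.00 in the caudal libraries, against 3.60, 4.26, 5.22, 4.74 and 4.49 in the non-floor plate libraries (-4.05 ± 0.21, 16.6-fold, adjusted p = 2.3e-28). This SE and p are pooled over 22 groups. The SD was 0.75 in caudal and 0.60 in non-floor plate libraries, but 0.06 in E9.5 neuroepithelium, for example. Aldh1a2 also passed in limma's fit of the compared groups alone, but not with the replicate number as a block (adjusted p = 0.095). Caudal library 3 was above the other 3, which were at the baseline, and all 4 were below every non-floor plate library. Of 17 BMP genes 1 fell and 16 did not pass, and 1 had an unadjusted p under 0.05 in limma's test, close to the 7.4% of all genes. That gene was Bmp7, a BMP ligand, with -0.96, -0.56, -0.94 and -0.79 in the caudal libraries, against -0.05, 2.96, -0.68, 2.34 and 2.73 in the non-floor plate libraries (-2.27 ± 0.63, adjusted p = 0.042). Its non-floor plate libraries were 3 high and 2 low, with library 3 inside the caudal range, and the call ended without any of the caudal libraries, without non-floor plate library 2, 4 or 5 (-2.36 to -1.90, adjusted p = 0.075 to 0.2) and in the compared groups alone (adjusted p = 0.3).

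Ventral neural tube genes also rose in caudal libraries: 4 of 16 Hedgehog pathway and ventral genes were higher and 12 did not pass. Nkx2-9, a ventral NK2 homeobox factor, had 2.74, 4.26, 2.06 and 3.79 in the caudal libraries, against 0.42, -0.55, -0.85, -0.71 and 1.17 in the non-floor plate libraries (3.31 ± 0.57, adjusted p = 6.2e-05). Nkx6-1, a ventral progenitor factor, had 2.80, 3.99, 1.11 and 2.56 in the caudal libraries, against 0.55, 0.13, -0.41, 0.00 and -0.09 in the non-floor plate libraries (2.58 ± 0.48, adjusted p = 0.00022). Nkx6-2, its relative, averaged 1.43 ± 0.38 (SD, n = 4) in caudal and -0.43 ± 0.13 (SD, n = 5) in non-floor plate libraries (1.86 ± 0.28, adjusted p = 1.4e-06). None of the 3 overlapped, and caudal library 3 was the lowest for Nkx2-9 and Nkx6-1.

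Boc, a Hedgehog co-receptor, averaged 2.04 ± 0.28 (SD, n = 4) in caudal and -0.20 ± 0.09 (SD, n = 5) in non-floor plate libraries (2.23 ± 0.22, adjusted p = 1.1e-12). Foxa2, which specifies the floor plate, had 0.26, 2.42, 1.31 and 2.89 in the caudal libraries, against -0.30, -0.23, -0.37, -0.32 and 0.54 in the non-floor plate libraries, and just missed the threshold (1.86 ± 0.53, adjusted p = 0.051). It passed without caudal library 1 (2.34, adjusted p = 0.01), the lowest of the 4, and without non-floor plate library 5 (2.03, adjusted p = 0.043), the only one of its group above the baseline. Shh, the ligand of notochord and floor plate, lay at -0.38 to -0.29 in caudal and -0.34 to -0.10 in non-floor plate libraries. Whether the caudal pieces held floor plate was not tested; in the compared groups alone Nkx2-9 was at adjusted p = 0.073 and Nkx6-1 at adjusted p = 0.1.

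Of 15 neural progenitor genes 2 rose and 13 did not pass, and of 13 genes of neuronal differentiation none passed in limma's test or had an unadjusted p under 0.05, against 1.41% and 7.4% of all genes, which for so short a list is near the background. Tubb3, the neuronal tubulin, averaged 0.26 ± 0.13 (SD, n = 4) in caudal and 1.67 ± 0.22 (SD, n = 5) in non-floor plate libraries without a call (adjusted p = 1). This p rests on a spread pooled over 22 groups, with an SD of 2.79 in E9.5 epidermal ectoderm, for example. The missing call of Tubb3 therefore does not show equal levels in the compared groups. Fabp7, the brain fatty acid binding protein of radial glia, had 4.45, 2.09, 1.57 and 3.03 in the caudal libraries, against -2.29, -2.24, -2.24, -2.15 and -2.18 in the non-floor plate libraries (5.00 ± 0.99, 32.1-fold, adjusted p = 0.00076). The non-floor plate values were nearly equal and well below the baseline, while the caudal values spread over almost 3 log2 units. Pou3f2, a POU factor of neural progenitors, had 4.29, 3.47, 4.43 and 3.64 in the caudal libraries, against -0.10, -0.11, 1.06, 2.01 and 0.40 in the non-floor plate libraries (3.30 ± 0.79, adjusted p = 0.01), and missed the threshold without non-floor plate libraries 1 to 3 (2.75, adjusted p = 0.3).

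Among cell surface genes that sort neural domains, 3 of 20 Eph receptors and ephrins rose and 17 did not pass, against 1.17% of all genes higher. Limma's unadjusted p was under 0.05 for 8 of the 20, against 7.4% of all genes. Efnb1, an ephrin ligand of craniofacial tissue, had 1.54, 1.5, 0.49 and 0.98 in the caudal libraries, against -0.06, -0.71, -0.03, -0.87 and -0.62 in the non-floor plate libraries (1.59 ± 0.34, adjusted p = 0.0021). The receptors Ephb1 (0.96 ± 0.22, adjusted p = 0.0073) and Epha2 (0.55 ± 0.12, adjusted p = 0.0045) rose with overlap. The call of Ephb1 ended without caudal library 2 (0.67, adjusted p = 0.21) or non-floor plate library 2 (0.80, adjusted p = 0.063), that of Epha2 without caudal library 2 (0.44, adjusted p = 0.085) or 3 (0.37, adjusted p = 0.21), those of both after quantile normalization (adjusted p = 0.47 and 0.63), and those of Efnb1, Ephb1 and Epha2 in the compared groups alone (adjusted p = 0.072, 0.39 and 0.35). Epha4, a receptor of rhombomeres, and Epha7, a receptor of forebrain and midbrain, had lower means in caudal libraries and did not pass (adjusted p = 0.66 and 0.21).

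Of 22 cadherins and claudins 1 rose, Cldn10, and 21 did not pass. Limma's unadjusted p was under 0.05 for 4 of the 22, against 7.4% of all genes. Cldn10, a claudin of ion-conducting tight junctions, had 4.94, 4.68, 4.68 and 4.33 in the caudal libraries, against -0.14, -0.53, -0.48, -0.41 and 1.53 in the non-floor plate libraries (4.66 ± 0.84, 25.4-fold, adjusted p = 0.00012). Only non-floor plate library 5 was above the baseline, and it was still far below the caudal libraries.

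Genes outside the lists were among the largest differences. Fam181b, a gene of the developing nervous system with little known of its function, had 2.89, 3.98, 4.12 and 3.39 in the caudal libraries, against 0.41, -0.83, -1.47, -0.76 and -1.42 in the non-floor plate libraries (4.41 ± 0.53, adjusted p = 2.4e-09). Foxd4, a forkhead gene of early neural plate, had -0.34, 0.61, -0.23 and 0.50 in the caudal libraries, against 4.28, 3.05, 3.05, 3.96 and 3.32 in the non-floor plate libraries (-3.40 ± 0.27, adjusted p = 3.2e-17). Eras, a constitutively active RAS relative known from embryonic stem cells, had 0.84, 2.39, 4.19 and 3.75 in the caudal libraries, against 6.01, 6.51, 6.51, 6.70 and 6.41 in the non-floor plate libraries (-3.64 ± 0.57, adjusted p = 6e-06). Eras was thus above the baseline in caudal libraries too, highest in library 3.

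Ermn, an actin-binding gene known from oligodendrocytes, had 0.00 to 0.06 in the caudal libraries, against 2.26 to 3.89 in the non-floor plate libraries (-2.98 ± 0.48, adjusted p = 1.2e-05). Tac1, the substance P precursor, had 3.16, 3.30, 2.96 and 0.73 in caudal libraries 1 to 4, against 4.60, 5.54, 5.64, 6.20 and 5.58 in the non-floor plate libraries (-2.97 ± 0.69, adjusted p = 0.0075), and its call ended without caudal library 4 (-2.37, adjusted p = 0.1). Pou5f1, the pluripotency factor OCT4 that is lost from the plate around this stage, had 5.33, 4.64, 5.08 and 5.16 in the caudal libraries, against 3.46, 3.87, 5.00, 2.34 and 3.28 in the non-floor plate libraries, and did not pass (1.46 ± 0.45, adjusted p = 0.093). It passed after quantile normalization (1.70, adjusted p = 0.039), without non-floor plate library 3 (1.82, adjusted p = 0.02) and without libraries 1 to 3 (2.24, adjusted p = 0.021). Pou5f1 had the largest difference in a list of 11 measured pluripotency genes. None of the 11 passed in the main fit, against 1.41% of all genes. Their differences ran from -1.15 to 1.46, with a median of 0.06 and 6 of them positive. Utf1, another pluripotency gene, averaged 0.01 ± 0.26 (SD, n = 4) in caudal and 1.15 ± 1.47 (SD, n = 5) in non-floor plate libraries. In the compared groups alone Eras was at adjusted p = 0.073 and Tac1 at adjusted p = 0.092.

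**Figure D4:**
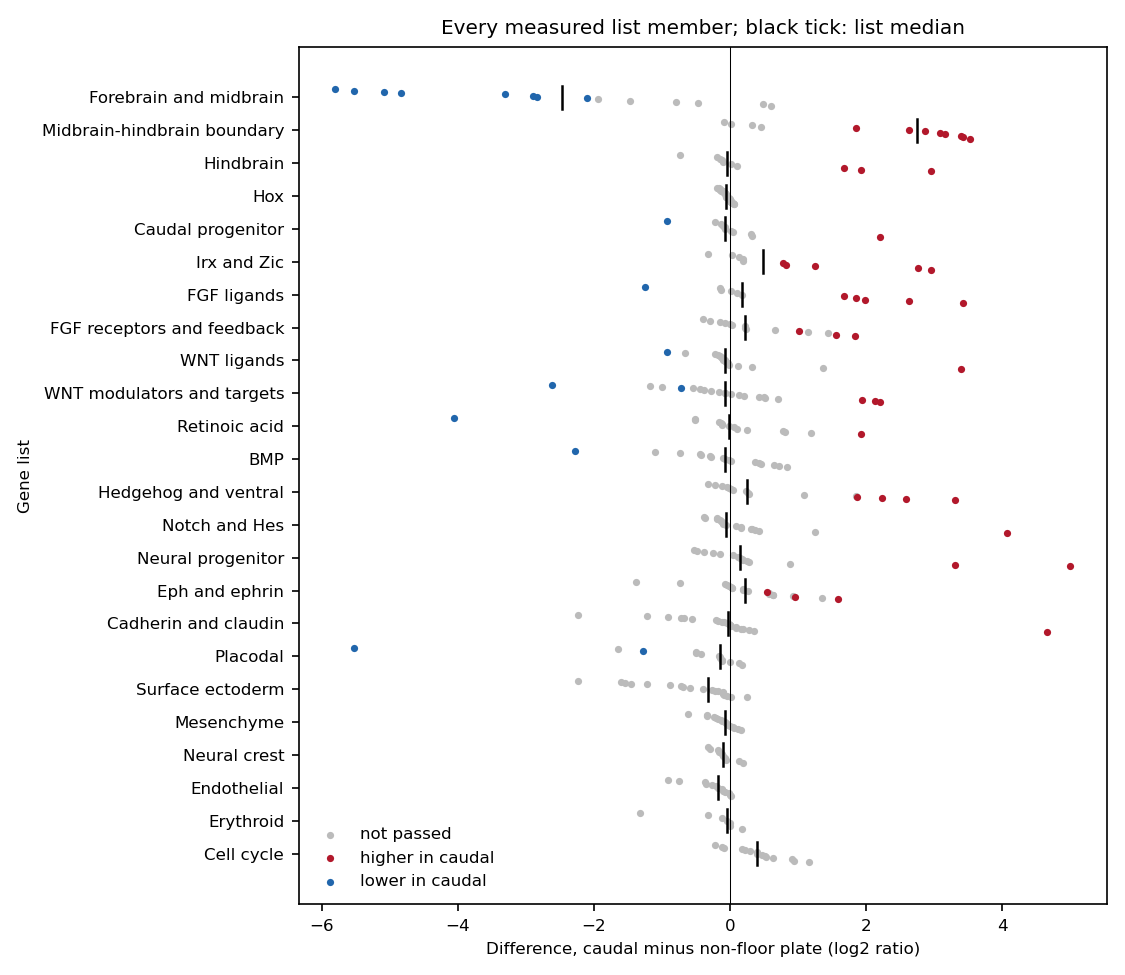
Log2 difference, caudal minus non-floor plate, for every measured member of 24 of the 29 gene lists (rows), coloured by call at adjusted p under 0.05, with a black tick at the list's median. Forebrain and midbrain genes lie to the left, with a median of -2.47, and boundary genes to the right, with a median of 2.75, while Hox genes lie within -0.20 to 0.06.

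Markers of neighbouring tissues were read in the same libraries. None of 20 surface ectoderm, 17 mesenchyme, 10 neural crest, 13 endothelial, 7 erythroid or 10 endoderm and notochord genes passed in either direction in limma's test. At an unadjusted p under 0.05 there were 4 surface ectoderm, 1 erythroid and 2 endoderm and notochord genes, and none of the other lists, against 7.4% of all genes. The globin gene Hbb-y was far below the baseline in both groups, at -6.07 ± 0.97 (SD, n = 4) in caudal and -6.24 ± 0.89 (SD, n = 5) in non-floor plate libraries. The mean over the surface ectoderm list was -0.32 to -0.09 in caudal libraries, and 0.68 to 0.77 in non-floor plate libraries 1 to 3 against -0.08 to -0.04 in non-floor plate libraries 4 and 5. Cldn7, an epithelial claudin, had -0.53, -0.55, -0.67 and -0.53 in the caudal libraries, against 3.43, 2.67, 3.01, -0.46 and -0.32 in the non-floor plate libraries. Epcam and Krt8, genes of simple epithelia, lay at -1.39 to 0.02 (Epcam) and -1.58 to 0.51 (Krt8) in caudal libraries, against 0.72 to 2.09 and 1.22 to 2.31 in non-floor plate libraries 1 to 3, where they were highest among these 2 groups. Of 14 placodal genes 2 fell, Hesx1 and Eya2, and 12 did not pass, against 0.241% of all genes lower. Eya2, a placodal cofactor, had -0.52, -0.36, -0.25 and -0.34 in the caudal libraries, against 1.02, 0.45, 1.69, -0.23 and 1.66 in the non-floor plate libraries (-1.28 ± 0.29, adjusted p = 0.0044), and in the compared groups alone it was at adjusted p = 0.25.

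Without non-floor plate libraries 1 to 3, which leaves 2 in that group, 142 genes rose and 84 fell, and 138 of the 226 were among the 282. Of the 55 called genes named here, 41 kept their call. The 14 that lost it were Six3, Otx2, Irx1, Irx4, Crabp1, Fgf3, Fgf15, Fgf5, Spry2, Nkd1, Fzd5, Pou3f2, Epha2 and Eya2. Of the boundary genes 8 rose and of the forebrain and midbrain genes 6 fell. The part of surface ectoderm in the other differences was not tested. The mean over the mesenchyme list was -0.58 to -0.38 in caudal and -0.47 to -0.26 in non-floor plate libraries, against 1.30 to 1.67 in E8.5 mesenchyme. The cell cycle list had means of 0.78 to 1.07 in caudal and 0.34 to 0.62 in non-floor plate libraries, with none of its 15 members passing in limma's test and 1 at an unadjusted p under 0.05, close to the 7.4% of all genes. Mcm2, a replication helicase subunit, averaged 2.19 ± 0.08 (SD, n = 4) in caudal and 1.24 ± 0.50 (SD, n = 5) in non-floor plate libraries (adjusted p = 0.91).

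Across the 22 groups of the atlas, caudal neural epithelium had the highest group mean for 209 of the 234 genes that rose (89.3%). It was the highest group for 19.6% of all genes tested, so that high ranks are common for it, and the 234 were chosen for being higher there than in non-floor plate. Hes3 averaged 5.25 ± 0.16 (SD, n = 4) in caudal libraries, followed by E8.5 mesenchyme at 1.39 ± 1.69 and E9.5 neuroepithelium at 1.25. Pax8 averaged 3.40 ± 0.70 in caudal libraries, followed by the E9.5 otic vesicle at 0.78 ± 0.96 and E9.5 neuroepithelium at 0.76. En1 averaged 2.96 ± 0.59 in caudal libraries and 0.63 ± 0.83 in E9.5 neuroepithelium. En2 had 3.15 ± 0.75 in caudal libraries and 2.66 ± 2.47 in E9.5 neuroepithelium, which lie within each other's SD. Fgf17 was nearly as high in the E10.5 olfactory pit, at 4.49 ± 0.23, as in caudal libraries, at 4.82 ± 0.49.

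Some genes that rose were not at their highest in caudal tissue. Fabp7 was higher in 5 other groups, at most 5.44 ± 0.10 in E10.5 control neuroepithelium, and Pou3f2 reached 5.55 ± 0.55 in E10.5 neuroepithelium under the lateral nasal prominence, against 3.95 ± 0.47 in caudal libraries. Among the 48 genes that fell, non-floor plate neural epithelium was the highest group for 28 (58.3%, against 3.6% of all genes) and floor plate for 9 (18.8%, against 5.9%). The 48 were chosen for being lower in caudal than in non-floor plate libraries. High ranks of non-floor plate and low ranks of caudal tissue follow in part from that choice. Caudal neural epithelium was among the 3 lowest of the 22 groups for 16 of the 48 (33.3%, against 17.9% of all genes), Fezf1, Rax and Lhx2 among them, and among the 11 highest for 22 (45.8%, against 61.5% of all genes). Tac1 and Aldh1a2, for example, were among the 3 highest there, as was Eras at 2.79 ± 1.51, behind the other E8.5 neural groups.

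**Figure D5:**
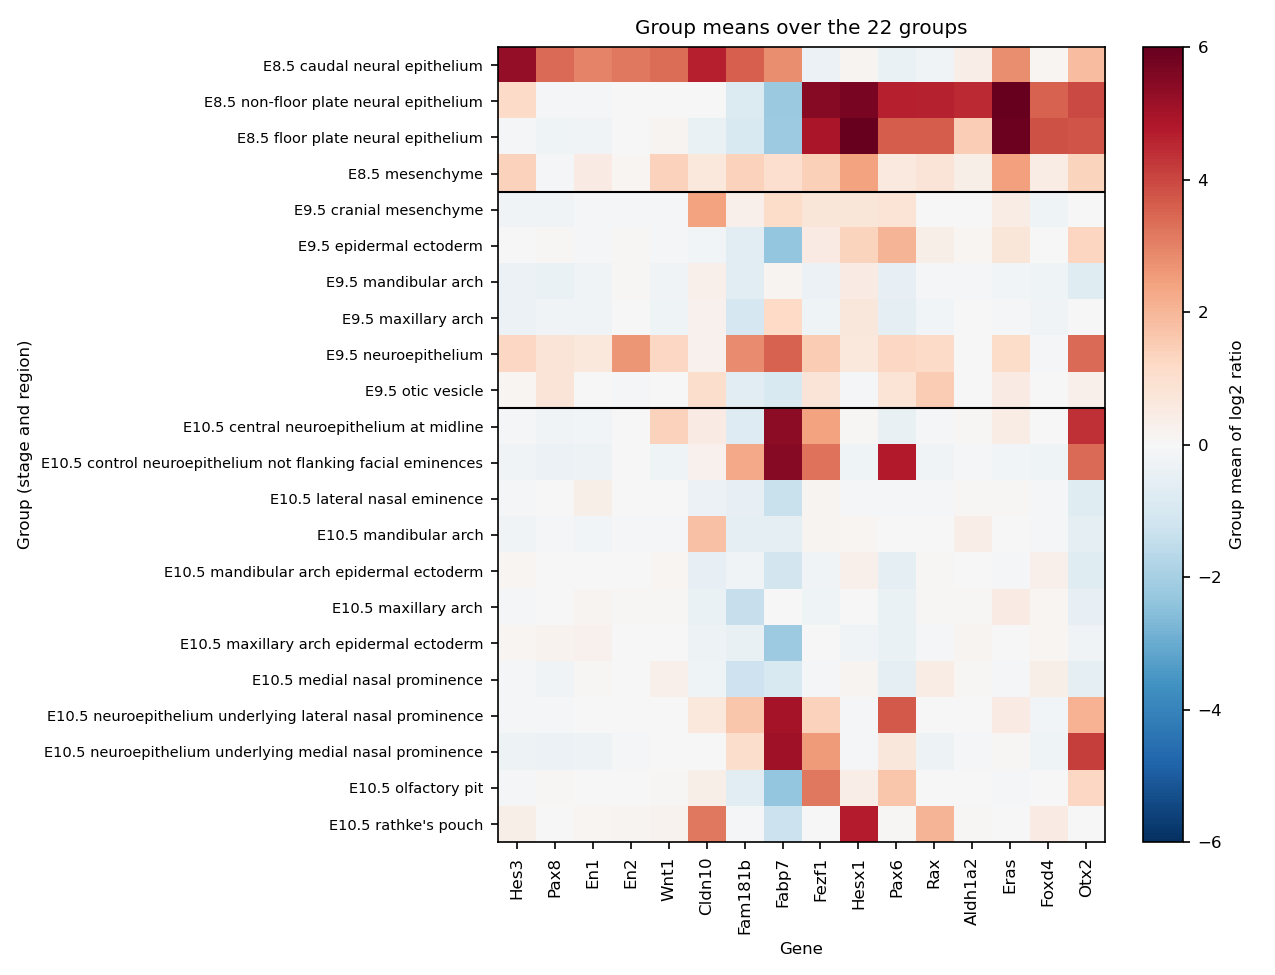
Mean log2 ratio of each of the 22 groups (rows, ordered by stage with lines between stages; E8.5 caudal at the top) for 16 genes (columns, colour scale from -6 to 6). Hes3, Pax8, En1 and Wnt1 are high in the caudal row and near 0 in most others, while Fezf1, Hesx1, Rax and Foxd4 are high in both other E8.5 neural rows.

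The floor plate libraries place these values beside the other neural group of the stage. The comparison of caudal with floor plate uses the same 4 caudal libraries, so that it is not independent of the first. In it 297 genes were higher and 62 lower in caudal libraries, 1.8% of genes (1.49% higher, 0.311% lower), and 12.3% of all genes showed no overlap (6.5% higher, 5.79% lower). Fezf1 averaged -0.33 ± 0.05 (SD, n = 4) in caudal, 5.47 ± 0.33 (SD, n = 5) in non-floor plate and 4.92 ± 0.53 (SD, n = 4) in floor plate libraries, and Hes3 averaged 5.25 ± 0.16, 1.17 ± 1.27 and -0.14 ± 0.14 in the same order. Of the 12 boundary genes 8 were higher than in floor plate, and of the 14 forebrain and midbrain genes 8 were lower. Of the 16 Hedgehog pathway and ventral genes 2 were higher and 1 lower than in floor plate.

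Among the ventral genes, Boc averaged 2.04 ± 0.28 (SD, n = 4) in caudal and 0.03 ± 0.35 (SD, n = 4) in floor plate libraries (2.01 ± 0.23, adjusted p = 7.6e-10), and Nkx6-2 averaged 1.43 ± 0.38 and -0.39 ± 0.17 in the same order (1.82 ± 0.29, adjusted p = 1.2e-05). Nkx2-9 averaged 3.21 ± 1.00 (SD, n = 4) in caudal and 4.78 ± 0.55 (SD, n = 4) in floor plate libraries, a difference of -1.57 that did not pass (adjusted p = 0.23). Foxa2 averaged 1.72 ± 1.18 (SD, n = 4) in caudal and 2.26 ± 1.95 (SD, n = 4) in floor plate libraries (adjusted p = 0.93). Spink1, a protease inhibitor gene at 4.99 to 6.48 in floor plate libraries, had 0.04, 1.84, 0.00 and 0.15 in the caudal libraries, a fall of 5.15 against floor plate (adjusted p = 4e-09) and no call against non-floor plate (adjusted p = 0.83). Aldh1a2 averaged 0.41 ± 0.75 (SD, n = 4) in caudal and 1.48 ± 0.89 (SD, n = 4) in floor plate libraries, a difference of -1.08 (adjusted p = 0.00086). The groups overlapped, as caudal library 3 at 1.54 lay above floor plate libraries 2 and 3 at 0.66 and 0.88. This p too rests on a spread pooled over 22 groups, with an SD of 0.06 in E9.5 neuroepithelium, for example. Tac1 averaged 2.54 ± 1.21 (SD, n = 4) in caudal and 1.05 ± 1.31 (SD, n = 4) in floor plate libraries and did not pass (adjusted p = 0.48), so that its fall was called against non-floor plate and not against floor plate; the difference between these comparisons was not tested.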

How the data were processed

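The atlas holds 103 array samples. Regions of frozen sections were laser-captured, and RNA was amplified and biotin-labelled, per the labels' protocols. RMA and genome build mm9 are named in the submitters' processing notes, with no version given in the sources used here. The deposited values are linear ratios. Their median over 21 samples was 1 within 6e-08 for every probe set, which is how the baseline is known. The smallest ratio was 0.01, shared by 62 values. The table gives no detection call or background, so weak probe sets cannot be told from absent signal, and the number of arrays limits the precision.

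Of 28856 probe sets with values, 21789 had 1 gene symbol, 1621 several and 5446 none. The first were used, with 1 probe set per gene, that of the highest mean log2 ratio, giving 19938 genes. The log2 of each ratio was fitted with limma 3.58.1 in R 4.3.3 over 102 samples in 22 groups (80 residual degrees of freedom). An E9.5 sample with conflicting labels was left out. The threshold for a call was 0.05 after Benjamini-Hochberg adjustment. Ranks, descriptions and figures were made with Python 3.11.15.

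The gene lists (29, with 455 entries) and the comparison were chosen with earlier results of these data known. Named by rule were the 12 largest rises and 12 largest falls among called genes without overlap (without predicted genes, small RNAs and receptors of smell or pheromones), called list members, up to 3 other members per list, the 3 markers and the Pax family; members that were not called are given in part, and Trh, Vgll3, Msx3 and the library checks were added after values were seen. In simulated data for caudal against non-floor plate, with 200 of 19938 genes changed, 66% of 2-fold and 77% of 4-fold changes were recovered and 4.03% of calls were unchanged genes. The simulated noise was normal, with the same SD for a gene in every group, as limma assumes. In the data SDs differed between groups, as for Fabp7 with 1.26 in caudal and 0.05 in non-floor plate libraries. The simulated rates may therefore not hold for the calls here. Alternatives covered normalization, weights, variance prior, probe sets, samples fitted, the replicate number as a block, low ratios and each library left out. Added after the data were seen were leaving out non-floor plate libraries 1 to 3 and a covariate made of each array's 75th percentile.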

Additional observations from a re-analysis of the deposited data

Results flagged for a closer look

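Among the genes named, 164 groups of values were examined for a library far from the rest of its group by Dixon's ratio, and 12 were found. Chance alone would flag about 5% of the 164 groups, so a single flag cannot be told from chance. In caudal libraries, Aldh1a2 in library 3 was at 1.54 while the others lay at 0.00 to 0.05, Tac1 in library 4 was at 0.73 with the others at 2.96 to 3.30, Notum in library 1 was at 1.16 with the others at 1.98 to 2.12, Spink1 in library 2 was at 1.84 with the others at 0.00 to 0.15, and Cldn7 in library 3 was at -0.67 with the others at -0.55 to -0.53. In non-floor plate libraries, Cldn10 in library 5 was at 1.53 with the others at -0.53 to -0.14, Sp5 in library 1 at 1.13 with the others at -0.72 to -0.38, and Emx2 in library 4 at 2.51 with the others at 0.25 to 0.88. Foxa2 in library 5 was at 0.54 with the others at -0.37 to -0.23, Cnpy1 in library 4 at 0.73 with the others at -0.13 to -0.03, Pax2 in library 2 at 0.11 with the others at -0.11 to -0.07, and Lmx1b in library 3 at -0.30 with the others at -0.05 to 0.01. For Lmx1b, Pax2 and caudal Cldn7 the distances are under 0.3 on the log2 scale.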

How the results depend on the processing

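The count of 282 genes became 159 after quantile normalization, 712 with array weights, 76 with the compared groups fitted alone and 93 with the 4 groups of E8.5 alone. It was 277 to 287 with a trend and robust prior, the mean of probe sets, a floor on low ratios or their omission, 194 with the 75th percentile covariate (132 higher and 62 lower, 68.0% higher), 226 without non-floor plate libraries 1 to 3 (62.8% higher) and 212 to 278 without 1 library. Against floor plate, 359 became 165 after quantile normalization (64.8% higher in place of 82.7%), 780 with array weights, 133 with the compared groups alone, 216 with E8.5 alone and 258 to 376 without 1 library. With the replicate block, 5 genes passed against non-floor plate and 10 against floor plate. The labels do not say whether the replicate numbers pair the libraries. Same-numbered deviations of caudal and non-floor plate libraries correlated at -0.005 to 0.057, and 2 of 4 caudal libraries correlated best with their own number. Eif2s3y was below the baseline in libraries 1 and 3 and above it in libraries 2 and 4 of caudal, non-floor plate and floor plate alike. In E8.5 mesenchyme it was above the baseline in libraries 1 and 3 and below it in libraries 2 and 4. Whether same-numbered libraries share an embryo was not tested. Of the 55 called genes named, 5 (Fezf1, Hesx1, Pax6, Lhx2 and Cldn10) passed in all 20 alternatives; 45 passed after quantile normalization, 24 in the compared groups alone, 31 in E8.5 alone and 46 to 53 without 1 library. The covariate ended the calls of Crabp1, Etv5, Nkd1, Dkk1, Fzd5 and Bmp7 (adjusted p = 0.053 to 0.35). No called gene changed sign. With array weights, Fezf2, Six6, Dusp6, Fzd8, Foxa2, Cldn7, Epha7 and Pou5f1, which had not passed, did so in limma's test (adjusted p = 0.0052 to 0.04). Six6 also passed without non-floor plate library 4 (adjusted p = 0.047), and Fzd8 without non-floor plate library 1 or 4 (adjusted p = 0.027 and 0.019). Epha7 and Foxa2 passed with the covariate (adjusted p = 0.04 and 0.043). Of genes that had not passed, Pax2 turned to -0.06 after quantile normalization, -0.02 with array weights, -0.01 with the replicate block and -0.09 to -0.0038 without caudal library 2 or non-floor plate library 1 or 5, in a range of -0.09 to 0.07 over all libraries left out. Pax7 turned to -0.02 with array weights and -0.05 to 0.05 without 1 library, and Pax9 to -0.06 without caudal library 2 (up to 0.07 without others), -0.03 without non-floor plate libraries 1 to 3 and -0.02 with the covariate. Pax3 turned to 0.23 without non-floor plate library 1 (down to -0.69 without others) and 0.79 without libraries 1 to 3, and Otx1 to -0.02 without caudal library 3 (up to 1.08 without others). With the covariate, Lmx1b turned to 0.15, Hoxb7 to 0.04, Pax1 to 0.0008 and Pax4 to 0.04. The causes were not tested, apart from fewer libraries where some were left out.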
